A study of Mus musculus with 41 samples.

Results

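Igf2 and 7 other imprinted genes of the juvenile growth programme (H19, Peg3, Mest, Plagl1, Grb10, Dlk1 and Ndn) were followed across the epithelium and the remaining stroma of the mouse thymus. The members were chosen by name, and each gene took the value of its probe of highest mean. Of the 8 genes, 6 had a probe among the 13283 genes on the table in either fraction. H19 and Plagl1 had no probe named for them and were not analysed here. All 6 had a probe in nonTEC, and 5 had one in TEC, where Mest had none. RNA came from cells sorted from the thymus of male C57Bl/6 mice. The CD45-EpCAM+ fraction holds the thymic epithelial cells (TEC), and the CD45-EpCAM- fraction, called nonTEC, the fibroblasts, vessels and other stroma. Unoperated young mice were 5 to 6 weeks old and unoperated middle-aged mice 9 to 12 months old. Further middle-aged mice were castrated or sham-operated and taken at day 4, 7 or 20 after surgery. The 24 TEC arrays formed 8 groups of 3. The 17 nonTEC arrays formed 6 groups of 3, except sham at day 7 with 2, and without day 20. Whether each array of a group is a different animal is not in the labels, and p-values therefore speak only of array-to-array spread.

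An imprinted gene is transcribed mainly from the allele of one parent, under the control of DNA methylation laid down in the germ line. Paternally expressed members such as Igf2, Dlk1, Peg3 and Mest generally promote growth, and maternally expressed ones such as H19, Cdkn1c and, in most tissues, Grb10 restrain it. Many of them fall together as body growth slows after birth, and thymic stroma is known as a source of IGF2 peptide. The comparisons ask which of these transcripts differ with age, when the thymus shrinks, and after castration, when it regrows.

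Igf2 is the gene on which most of the results turn, and the sequences just before its transcription starts show how unlike these starts are. RefSeq windows (GRCm38.p6) were found for 7 of the 8 listed genes, 13 windows in all, and Igf2 had 4. The 250 bases before the first 3 Igf2 starts follow, read 5′ to 3′ on the minus strand, with CpG dinucleotides, the substrate of DNA methylation, in capitals. They lie at chr7:142666817-142667066, chr7:142661272-142661521 and chr7:142658805-142659054.
Igf2 start 1: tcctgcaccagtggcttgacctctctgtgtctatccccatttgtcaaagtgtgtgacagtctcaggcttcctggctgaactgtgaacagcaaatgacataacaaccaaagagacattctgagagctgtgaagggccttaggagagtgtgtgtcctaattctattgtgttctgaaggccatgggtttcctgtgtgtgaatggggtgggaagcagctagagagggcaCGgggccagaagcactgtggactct
Igf2 start 2: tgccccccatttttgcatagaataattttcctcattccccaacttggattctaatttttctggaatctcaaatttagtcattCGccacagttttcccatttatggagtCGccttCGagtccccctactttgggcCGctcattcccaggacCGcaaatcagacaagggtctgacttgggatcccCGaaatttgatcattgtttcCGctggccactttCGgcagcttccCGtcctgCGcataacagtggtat
Igf2 start 3: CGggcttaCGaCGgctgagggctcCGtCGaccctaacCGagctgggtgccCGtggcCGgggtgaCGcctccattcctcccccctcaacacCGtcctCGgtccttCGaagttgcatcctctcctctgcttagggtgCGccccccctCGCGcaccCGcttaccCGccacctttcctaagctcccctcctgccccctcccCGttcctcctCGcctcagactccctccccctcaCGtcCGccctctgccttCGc
The first window held 1 CpG at 50.8% GC, the window before start 2 held 10 at 47.6%, and the window before start 3 held 22 at 68.8%. The window before start 4 held 6 CpG at 66.0% GC. The median over all 32851 windows was 6 CpG. The array measured Igf2 with 1 probe, so transcripts from these starts could not be told apart.

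Dlk1 moved together with Igf2 in the TEC arrays of day 20 described further on. The 250 bases before its start, at chr12:109452573-109452822 on the plus strand, held 8 CpG at 54.8% GC, again in capitals.
Dlk1: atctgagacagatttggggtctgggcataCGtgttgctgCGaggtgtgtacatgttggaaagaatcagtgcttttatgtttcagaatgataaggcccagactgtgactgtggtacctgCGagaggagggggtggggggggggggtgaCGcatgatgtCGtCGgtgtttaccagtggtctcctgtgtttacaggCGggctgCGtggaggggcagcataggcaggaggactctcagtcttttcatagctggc
The motif GGGGCCCC, which the transcription factor made from Plagl1 is known to bind, reads the same on both strands and was in 0.889% of the windows. It was in 1 of the 13 windows of the listed genes, that of Peg3, and begins 201 bases before the start. These 30 bases of the minus strand at chr7:6730602-6730631 show it in capitals.
Peg3: gactctgcttgGGGGCCCCtaacactgact
None of the 4 Igf2 windows held these letters.

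Among array values, the keratin Krt8 lay at 12.73 to 13.65 on every TEC array, and the fibroblast receptor Pdgfra at 12.16 to 13.32 on every nonTEC array. Markers were not confined to a single fraction. The fibroblast gene Dcn lay at 9.91 to 12.88 in TEC, and Krt8 at 7.02 to 10.74 in nonTEC. Dcn did not stand for the fibroblast list in TEC. There Pdgfra lay at 4.78 to 9.11, Col1a1 at 4.45 to 6.61 and the mean of 11 fibroblast markers at 6.62 to 9.23. In TEC, sorted as CD45-, the mean of 4 pan-leukocyte markers was 9.75 to 11.51. Epcam had no probe, and Foxn1, the master regulator of TEC, was dim in TEC (4.43 to 5.86). The 6 TEC arrays of day 20 stood apart on the first principal component of TEC, which carried 35.5% of the variance. Against days 4 and 7, 64.2% of the genes tested passed in this contrast. In TEC, sham day 4 array 3 had a mean of fibroblast markers of 9.23 and of thymocyte markers of 9.36. Castrated day 4 array 3, at 8.65, and middle-aged array 3, at 8.15, were the next highest in fibroblast markers. With castrated day 4 array 2 they were the 4 TEC arrays lowest on the first component (-42.5 to -33). They are called below the 4 TEC arrays that stand apart, which refers to this component and not to their groups. As a choice made after the values were seen, each comparison that uses their groups was refitted without all 4. Of castrated day 4 the refit kept only array 1, at 2.7 on that component, while arrays 2 and 3 lay together at -33.1 and -33. The value is given where the refit ended a call and for ageing in TEC.

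**Figure D1:**
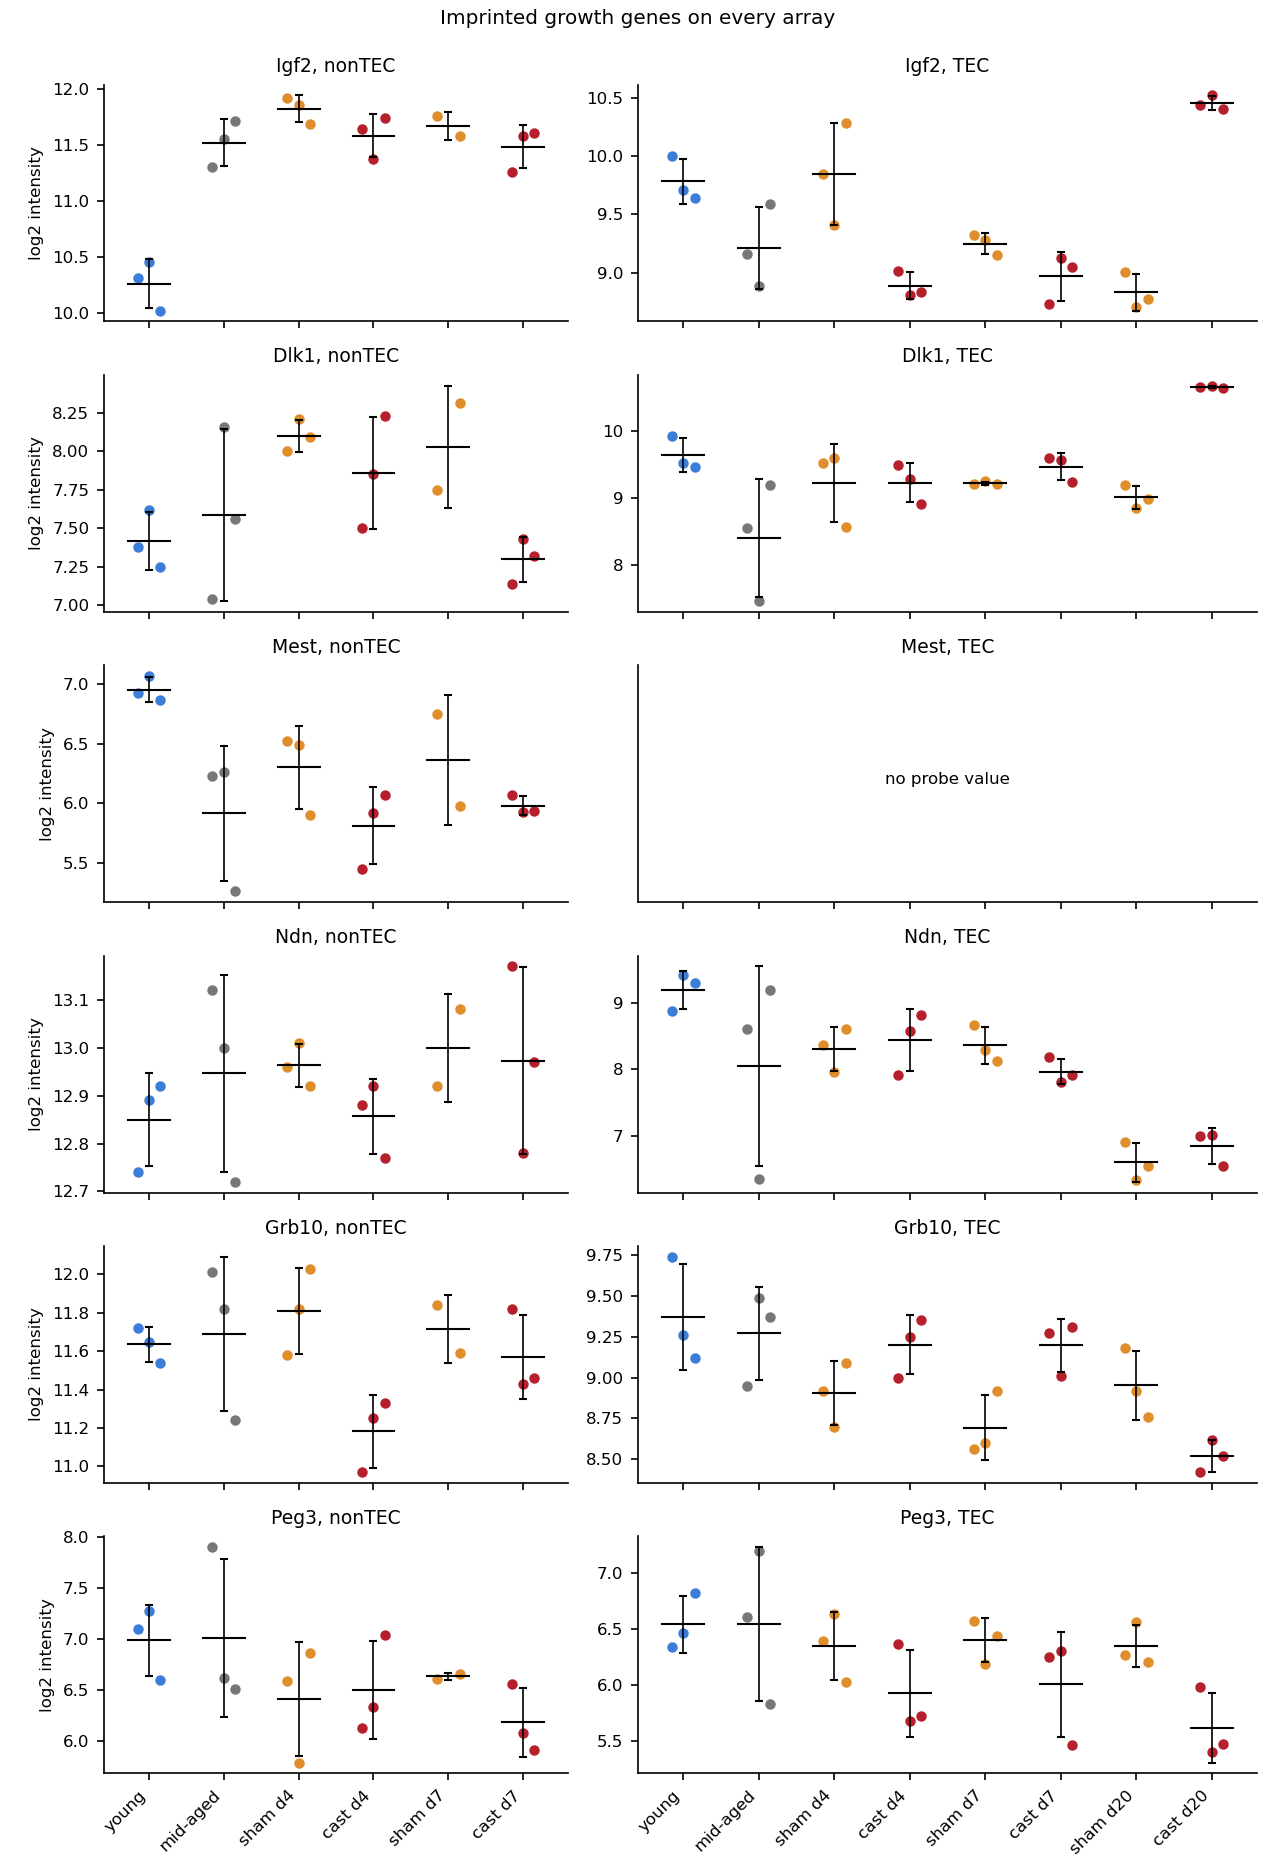
Log2 intensity of the 6 members with a probe (y axis) on every array of nonTEC (left) and TEC (right), by group (x axis; d, day; cast, castrated). Points are arrays, bars the group mean ± SD, and y axes differ between panels. Within nonTEC, Igf2 is lowest in young mice (10.02 to 10.45), and within TEC it is highest in castrated mice of day 20 (10.40 to 10.52).

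In nonTEC, Igf2, the fetal growth ligand that signals through the IGF1 receptor, was higher with age. Its log2 intensity was 10.31, 10.45 and 10.02 on the young arrays and 11.30, 11.55 and 11.71 on the middle-aged arrays. No young array reached any middle-aged one. The difference was 1.26 ± 0.15 (log2 ± SE, 2.4-fold, adjusted p = 1.86e-05; limma, 3 against 3 arrays, Benjamini-Hochberg over the 7771 genes tested). In these pooled cells, a change in the make-up of the stroma and a change in RNA per cell cannot be told apart.

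Mest, a paternally expressed gene that takes part in the growth of adipose tissue, went the other way. Its main probe read 6.93, 7.07 and 6.87 on the young arrays and 6.23, 6.26 and 5.26 on the middle-aged arrays, which did not overlap. The difference was -1.04 ± 0.29 (adjusted p = 0.0105). Without middle-aged array 3 it was -0.71 (adjusted p = 0.0506), and with the sham arrays in place of the unoperated ones it was -0.62 (adjusted p = 0.0759). The other 2 probes of Mest gave -0.60 ± 0.24 and -0.55 ± 0.24, with adjusted p of 0.0912 and 0.117 when each probe was fitted on its own. Mest passed the filter on dim genes only through the young group, whose mean of 6.96 was just above the limit of 6.73. Its filtered value is therefore a description. Fitted probe by probe with no filter, the main probe gave -1.04 ± 0.27 (adjusted p = 0.011).

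Igf2 and Mest were 2 of the 6 members tested, against 32.4% of all genes that passed in either direction in this contrast. Mest is counted here with the limit on its filter given above. Dlk1, a Notch-family ligand that holds back fat cell differentiation, read 7.25 to 7.62 in young and 7.04 to 8.16 in middle-aged nonTEC, a difference of 0.17 ± 0.24. The other members tested lay closer still to 0. Ndn, a MAGE protein that restrains the cell cycle, gave 0.09 ± 0.12, and Grb10, an adaptor that damps insulin and IGF1 receptor signalling, gave 0.05 ± 0.18. Peg3, a zinc finger protein of maternal care and growth, gave 0.02 ± 0.35, with middle-aged array 1 at 7.90 and the other middle-aged arrays at 6.62 and 6.51.

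Markers of other cells moved in the same arrays. Thymocyte markers were lower in middle age in 6 of 6 tested genes, pan-leukocyte markers in 4 of 4 and cell cycle genes in 7 of 7. Of 12 fibroblast markers 5 were lower, among them Col1a1 and Col3a1, and 1 was higher, while Pdgfra did not pass (0.29 ± 0.20). The mean of the fibroblast list was 12.67 to 12.87 in young and 12.12 to 12.62 in middle age. Epithelial markers had a mean of 7.02 to 8.02 in young and 5.8 to 6.78 in middle-aged nonTEC. For macrophage markers these means were 7.64 to 8.58 and 5.83 to 7.45. Endothelial means (8.57 to 9.1 and 8.22 to 9.14) and pericyte means (8.37 to 8.73 and 8.03 to 8.68) overlapped between the ages. The part of all these cells in the Igf2 and Mest differences was not tested.

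**Figure D2:**
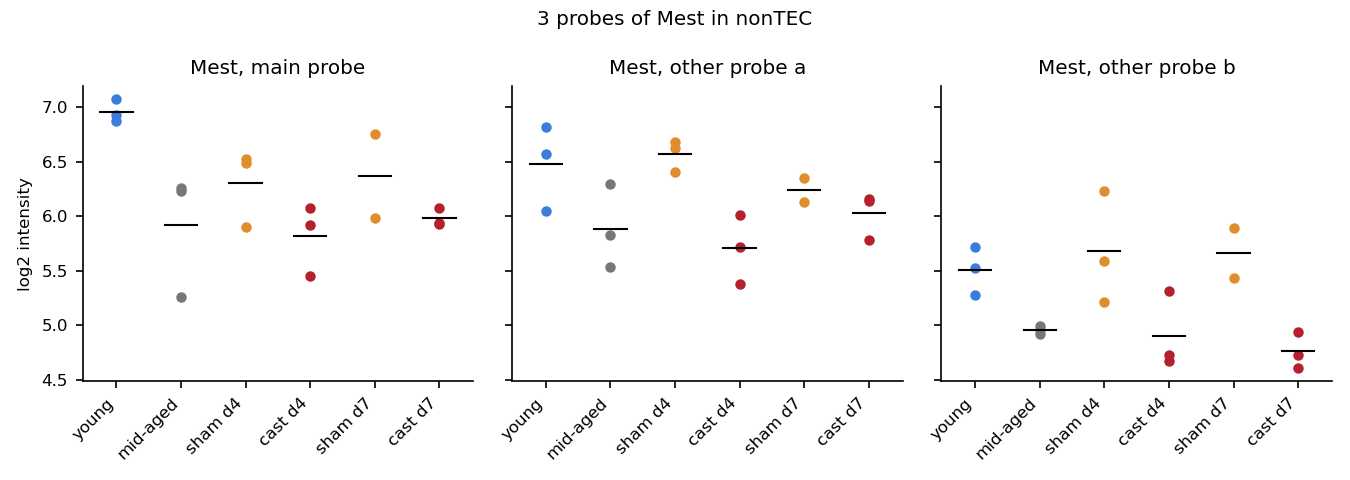
Log2 intensity of the 3 Mest probes (y axis) on each nonTEC array, by group (x axis); bars are group means. The main probe is highest in young (6.87 to 7.07), while the young and middle-aged arrays overlap on other probe a.

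The castrated nonTEC arrays stayed on the middle-aged side for both genes. Igf2 read 11.64, 11.37 and 11.74 at day 4 and 11.26, 11.58 and 11.61 at day 7 after castration. The sham arrays read 11.92, 11.86 and 11.69 at day 4 and 11.76 and 11.58 at day 7. All 11 operated arrays were above every young array. Castrated minus young was 1.27 ± 0.13 (adjusted p = 4.71e-06) for Igf2 and -1.06 ± 0.25 (adjusted p = 0.00634) for Mest, and 17.7% of genes passed this contrast. The Mest value is a description, since Mest was tested only because its young mean was high; its other 2 probes, fitted one by one with no filter, gave -0.61 ± 0.21 (adjusted p = 0.0681) and -0.68 ± 0.21 (adjusted p = 0.0407). No other member passed it, and Peg3 came nearest at -0.65 ± 0.30 (adjusted p = 0.148).

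Against sham, 1 member passed the test of castration in nonTEC, Grb10 at day 4. It read 11.58, 11.82 and 12.03 in sham and 10.97, 11.25 and 11.33 in castrated mice of day 4. The groups did not overlap, and the castrated group of day 4 was the lowest of the 6 groups. The difference was -0.63 ± 0.18 (1.55-fold lower, adjusted p = 0.0419), where 6.31% of all genes passed. It missed the threshold when castrated array 1 (-0.52, adjusted p = 0.198) or 2 (-0.66, 0.0896), or sham array 2 (-0.62, 0.112) or 3 (-0.52, 0.214), was left out. It also missed it against the unoperated arrays (-0.51, adjusted p = 0.0666) and when arrays were centred on their medians (-0.59, adjusted p = 0.0599). The other Grb10 probe gave -0.72 ± 0.30 (adjusted p = 0.199 on its own). The 3 Mest probes gave -0.49 ± 0.27, -0.86 ± 0.24 and -0.77 ± 0.24 at day 4 when fitted one by one, and none passed (adjusted p = 0.36, 0.0539 and 0.0813).

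In the same arrays thymocyte markers were higher after castration in 6 of 6 tested genes and cell cycle genes in 7 of 7, and the thymocyte mean was 7.46 to 9.18 in castrated against 6.62 to 6.97 in sham arrays. Castrated array 1, the lowest for Grb10, was the highest for thymocyte (9.18) and cell cycle (8.48) markers. Their part in the Grb10 difference was not tested.

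At day 7 none of the 6 members passed in nonTEC, where 34 of all genes, 0.438%, did and 799 had an unadjusted p under 0.05. Dlk1 read 7.14 to 7.43 in castrated and 7.75 and 8.31 in sham arrays, a difference of -0.74 ± 0.27 with an unadjusted p of 0.0142 and an adjusted p of 0.301. On the average of both days no member passed on its main probe, against 6.54% of all genes. Grb10 gave -0.39 ± 0.13 (adjusted p = 0.0961) and Dlk1 -0.49 ± 0.18 (adjusted p = 0.128). Fitted one by one, the second Grb10 probe passed (-0.89 ± 0.22, adjusted p = 0.0284), as did 1 of the other Mest probes (-0.84 ± 0.18, adjusted p = 0.0109).

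**Figure D3:**
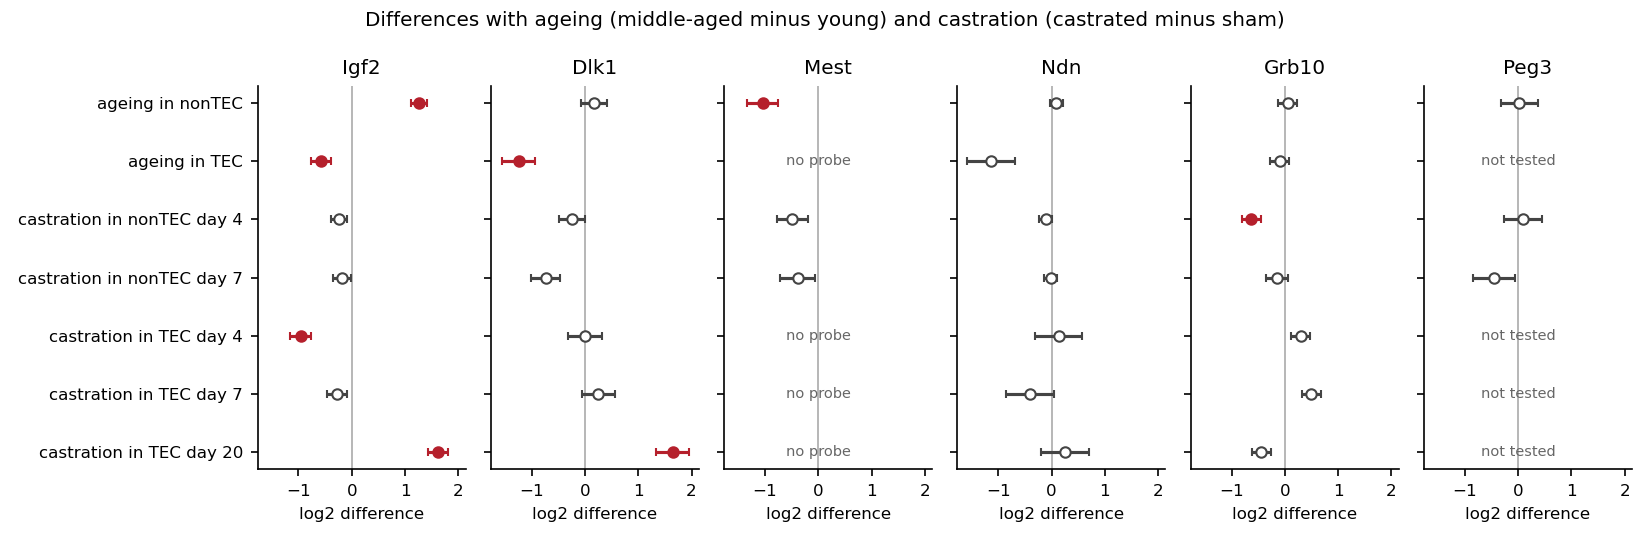
Log2 differences ± SE (x axis) of each member in ageing and castration comparisons (y axis). Filled red points passed an adjusted p of 0.05, open points did not. Igf2 is at 1.26 with ageing in nonTEC, at -0.57 with ageing in TEC and at 1.62 for castration at day 20 in TEC.

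In TEC, Igf2 and Dlk1 were lower with age. Igf2 read 10.00, 9.71 and 9.64 on the young arrays and 9.16, 8.89 and 9.59 on the middle-aged arrays. The highest middle-aged array lay just under the lowest young one. The difference was -0.57 ± 0.19 (1.48-fold lower, adjusted p = 0.0433 over 8195 genes). This call depended on single arrays. It missed the threshold without young array 1 (-0.46, adjusted p = 0.146), 2 (-0.61, 0.0858) or 3 (-0.64, 0.0603), or without middle-aged array 1 (-0.54, 0.0839) or 2 (-0.41, 0.187).

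Dlk1 read 9.93, 9.53 and 9.47 in young TEC and 8.55, 7.46 and 9.20 in middle-aged TEC. The groups did not overlap, and the middle-aged arrays spread widely. The difference was -1.24 ± 0.31 (2.37-fold lower, adjusted p = 0.0101). Middle-aged arrays 2 and 3 had the lowest correlation within a TEC group (0.876). Without array 2, the lowest in Dlk1, the difference was -0.77 (adjusted p = 0.0559), and with sham arrays in place of the unoperated ones -0.49 (adjusted p = 0.162). Without the 4 arrays lowest on the first component, array 3 among them, the ageing difference was -1.64 for Dlk1 (adjusted p = 7.51e-05) and -0.76 for Igf2 (adjusted p = 0.00217). Array 3 was the middle-aged array nearest to young for both genes, so this refit could only widen the differences. It kept array 2, which lay furthest out of all TEC arrays on the second component (60.4, with 19.4% of the variance). The other Dlk1 probe gave -0.73 ± 0.24 (adjusted p = 0.0559 on its own).

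Of the 4 members tested in TEC these 2 passed, where 18.8% of all genes did. Ndn read 8.87, 9.41 and 9.29 in young and 8.60, 6.36 and 9.19 in middle-aged TEC, a difference of -1.14 ± 0.45 that did not pass (adjusted p = 0.0839). Grb10 gave -0.10 ± 0.18. Peg3 did not reach the filter in TEC, where its arrays lay at 5.41 to 7.19. Of the other lists, 3 of 4 pan-leukocyte markers and 3 of 4 macrophage markers were lower in middle-aged TEC and 0 of 9 fibroblast markers passed; their part in these differences was not tested.

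The age difference of Igf2 was thus of opposite sign in the fractions, and that contrast was tested over all 41 arrays. The TEC difference minus the nonTEC difference was -1.83 ± 0.25 for Igf2 (adjusted p = 1.14e-05) and -1.42 ± 0.42 for Dlk1 (adjusted p = 0.0255), where 11.2% of genes passed. The other Dlk1 probe gave -0.54 ± 0.40 and did not pass (adjusted p = 0.455 on its own). Without 1 array, Igf2 ranged from -2.02 to -1.67 and passed each time. The Dlk1 contrast missed the threshold without TEC young array 1 (-1.27, adjusted p = 0.0596), TEC middle-aged array 2 (-0.94, 0.0997), nonTEC middle-aged array 2 (-1.13, 0.0862) or nonTEC young array 3 (-1.33, 0.0634). The deposited fractions appear to have been normalized separately, which cancels in these contrasts only as far as it shifted all arrays of a fraction alike.

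Levels of the members also differed between the fractions at each age. In young mice the TEC minus nonTEC difference was -3.66 ± 0.36 for Ndn, -2.26 ± 0.18 for Grb10, -0.48 ± 0.18 for Igf2 and 2.23 ± 0.29 for Dlk1. All 4 passed, as did 66.5% of genes (Igf2 adjusted p = 0.0183). In middle age, where 70.2% of genes passed, the TEC minus nonTEC difference was -4.90 ± 0.36 for Ndn, -2.42 ± 0.18 for Grb10, -2.31 ± 0.18 for Igf2 and 0.82 ± 0.29 for Dlk1 (adjusted p = 0.015). Peg3 passed at neither age (-0.45 ± 0.34 and -0.47 ± 0.34). Over all genes tested the median TEC minus nonTEC difference was -0.30 in young and -0.24 in middle-aged mice. The young difference of Igf2 depended on the scaling, at -0.17 (adjusted p = 0.413) after quantile normalization over all arrays and -0.22 (0.259) after median centring. It also missed the threshold without TEC young array 2 (-0.44, adjusted p = 0.0583) or 3 (-0.41, 0.0758), or without nonTEC young array 1 (-0.45, 0.05) or 2 (-0.38, 0.0936). The middle-aged difference of Dlk1 missed it without TEC middle-aged array 3 (0.42, adjusted p = 0.205) or without nonTEC middle-aged array 1 (0.54, 0.132). It also missed it without all 4 TEC arrays that stand apart (0.42, 0.151). These values are of the main probe. The other Dlk1 probe gave 2.71 ± 0.28 in young and 2.17 ± 0.28 in middle age (adjusted p = 5.91e-10 and 5.61e-08 on its own).

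In TEC, the castration difference of Igf2 had opposite signs at day 4 and day 20. At day 4, Igf2 read 9.85, 9.41 and 10.28 in sham and 9.02, 8.81 and 8.84 in castrated mice. Every castrated array was below every sham array. The difference was -0.96 ± 0.19 (1.94-fold lower, adjusted p = 0.0199), and 3.62% of genes passed. It was the only one of the 4 members tested to pass at day 4.

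The sham arrays of day 4 were themselves high for Igf2. Sham array 3, the highest at 10.28, was also the array highest in fibroblast and thymocyte markers. Without it the difference was -0.74 (adjusted p = 0.0756), without castrated array 2 it was -0.91 (0.111), and without castrated array 3 it was -0.93 (0.0855). Against the unoperated middle-aged arrays in place of sham it was -0.32 (adjusted p = 0.477). Without the 4 TEC arrays lowest on the first component it was -0.61, a fit that keeps only array 1 of castrated day 4.

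At day 7 none of the 4 passed; 14 of all genes, 0.171%, did, and 1079 had an unadjusted p under 0.05. Igf2 read 9.32, 9.28 and 9.15 in sham and 8.73, 9.13 and 9.05 in castrated TEC, a difference of -0.28 ± 0.19 (adjusted p = 0.567). Grb10 gave 0.50 ± 0.18 with every castrated array above every sham array, but its adjusted p was 0.251.

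At day 20 Igf2 and Dlk1 were both higher after castration, each about 3-fold. Igf2 read 9.01, 8.71 and 8.78 in sham and 10.44, 10.52 and 10.40 in castrated mice. Dlk1 read 9.20, 8.85 and 8.98 in sham and 10.66, 10.68 and 10.64 in castrated mice. For both genes the castrated arrays of day 20 were above all 21 other TEC arrays.

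The differences were 1.62 ± 0.19 for Igf2 (3.08-fold, adjusted p = 1.67e-05) and 1.65 ± 0.31 for Dlk1 (3.14-fold, adjusted p = 0.00078), where 22.5% of genes passed. Leaving out any array of these groups kept Igf2 between 1.56 and 1.71 and Dlk1 between 1.57 and 1.75, past the threshold each time. The other Dlk1 probe read 8.21, 8.22 and 8.26 in castrated against 6.90, 6.68 and 6.52 in sham mice, a difference of 1.53 ± 0.24. On this probe, however, the castrated arrays did not stand above the young arrays, which reached 8.76.

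Of the other members, Grb10 read 8.42 to 8.62 in castrated and 8.76 to 9.18 in sham TEC of day 20, a difference of -0.44 ± 0.18 that did not pass (adjusted p = 0.0903). Its dimmer probe gave -0.66 ± 0.17 (adjusted p = 0.0114 on its own). Ndn gave 0.26 ± 0.45, with all 6 arrays of that day at 6.35 to 7.02. Peg3, under the filter, read 5.98, 5.41 and 5.48 in castrated and 6.27, 6.56 and 6.21 in sham mice.

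The castration difference of day 20 minus the mean of those of days 4 and 7 was then tested, a contrast added after the values were seen. It was 2.24 ± 0.23 for Igf2 (adjusted p = 7.18e-06), 1.53 ± 0.38 for Dlk1 (adjusted p = 0.00736) and -0.84 ± 0.22 for Grb10 (adjusted p = 0.0107), where 22.9% of genes passed. All 3 passed without each array in turn. Averaged over the 3 days, castration gave 0.13 ± 0.11 for Igf2, and only Dlk1 passed (0.63 ± 0.18, adjusted p = 0.0296, with 10.8% of genes), while its other probe did not (0.37 ± 0.14, adjusted p = 0.103 on its own). That Dlk1 call was lost on leaving out any of 9 arrays, with adjusted p of 0.0517 to 0.0631: castrated day 7 arrays 1 and 2, sham day 7 array 3, sham day 4 array 3, castrated day 4 array 2, castrated day 20 arrays 1 and 2, and sham day 20 arrays 2 and 3.

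**Figure D4:**
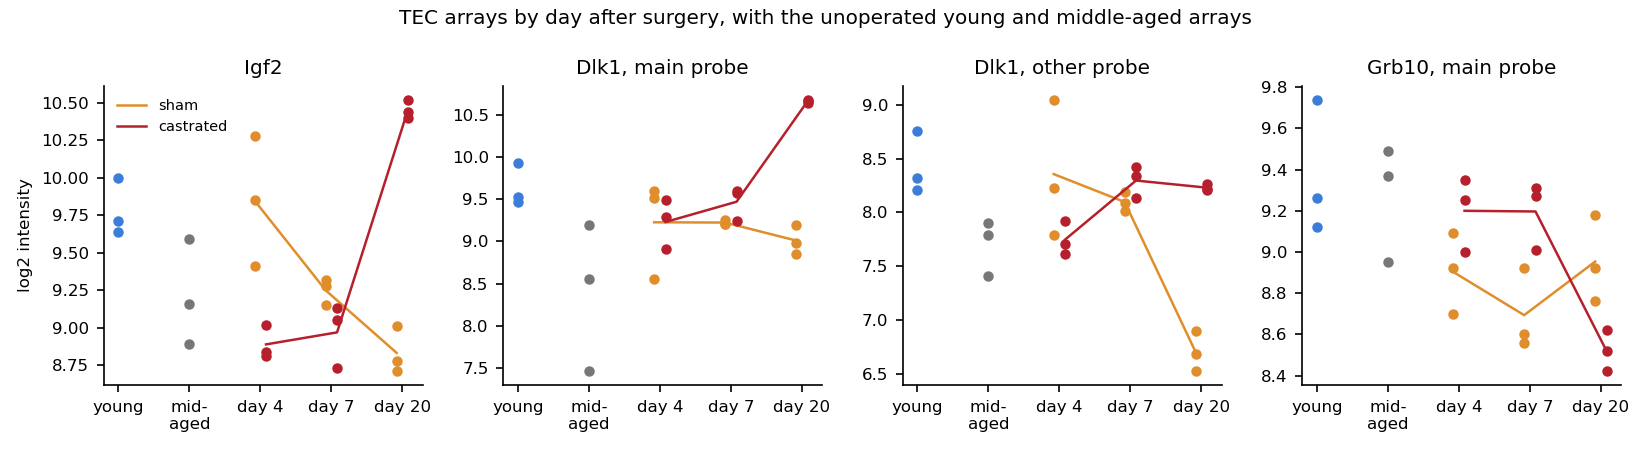
Log2 intensity in TEC (y axis) of Igf2, of both Dlk1 probes and of the main Grb10 probe on young (blue), middle-aged (grey), sham (orange) and castrated (red) arrays, by day after surgery (x axis). Points are arrays and lines join group means. At day 20 the castrated arrays of Igf2 (10.40 to 10.52) lie above the sham arrays (8.71 to 9.01), and at day 4 below them.

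Markers of other cells differed between the same day 20 groups. Pan-leukocyte markers were higher in castrated TEC in 4 of 4 tested genes, with means of 10.98 to 11.24 against 9.75 to 10.11 in sham. Macrophage markers were higher in 3 of 4, and of 10 epithelial markers 2 were higher, Aire and Fezf2, both regulators of self-antigen expression in medullary TEC. The fibroblast mean was 7.04 to 7.08 in castrated and 6.62 to 6.69 in sham arrays, with 1 of 9 tested genes, Thy1, higher, while Pdgfra was at 4.78 to 5.04 in castrated and 5.26 to 5.47 in sham. The part of these cells in the Igf2 and Dlk1 differences was not tested.

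Compared with young TEC, the castrated arrays of day 20 were higher in Igf2 by 0.67 ± 0.19 (adjusted p = 0.00827) and in Dlk1 by 1.01 ± 0.31 (adjusted p = 0.013), and lower in Grb10 (-0.85 ± 0.18, adjusted p = 0.000924) and Ndn (-2.33 ± 0.45, adjusted p = 0.000458). This contrast was also added after the values were seen, and 42.2% of genes passed it. The day 20 arrays, sham and castrated, lay at 43.7 to 61 on the first component, and every other TEC array at 2.7 or lower. The part of this offset in the differences from young was not tested. Ndn was also low in sham TEC of day 20 (6.35 to 6.92). With the mean of both Dlk1 probes the Dlk1 difference was 0.41 (adjusted p = 0.181), and the other probe alone gave -0.20 ± 0.24. The other Grb10 probe gave -0.33 ± 0.17 and did not pass (adjusted p = 0.155 on its own). Averaged over days, castrated minus young passed for Ndn alone (-1.44 ± 0.37, adjusted p = 0.0113, with 20.9% of genes), and not without young array 2 (-1.32, 0.0788) or 3 (-1.39, 0.061). Igf2 gave -0.34 ± 0.16 on that average (adjusted p = 0.124).

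The day 20 arrays also differed from days 4 and 7 when castrated and sham mice were pooled. Of all genes tested 64.2% passed this contrast, 38.6% lower and 25.6% higher. Ndn gave -1.54 ± 0.28 (adjusted p = 8.6e-05) and no day 20 array reached any array of days 4 and 7. In the same contrast 6 of 9 tested fibroblast markers were lower and 1 was higher, and their part in the Ndn difference was not tested. Igf2 was 0.40 ± 0.12 higher. Dlk1 and Grb10 had no settled direction in this contrast, because the probes of each gene differed in sign. The main Dlk1 probe gave 0.55 ± 0.19 and the other one -0.66 ± 0.14 (adjusted p = 0.000679 on its own). The main Grb10 probe gave -0.26 ± 0.11 and the other one 0.34 ± 0.10 (adjusted p = 0.0095 on its own). With a gene's probes averaged, Dlk1 turned to -0.06 and Grb10 to 0.04, neither past the threshold. The call on the main Grb10 probe was also lost in 12 of 18 fits that left out 1 array. It held only without sham arrays 2 of day 4, 1 and 2 of day 7 and 1 of day 20, or castrated arrays 1 of day 4 and 2 of day 7. It was lost with no filter (adjusted p = 0.0534), quantile normalization (-0.23, 0.0772), median centring (-0.16, 0.213) and without the 4 TEC arrays that stand apart (-0.19, 0.183). Sham surgery against no surgery passed for none of the members, in nonTEC with 0.283% of genes (22 genes, and 1616 at an unadjusted p under 0.05) or in TEC with 5.58% (457 genes, and 2165 at an unadjusted p under 0.05).

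Castration was then compared between the fractions over days 4 and 7. The TEC difference minus the nonTEC difference passed for Grb10 alone, at 0.79 ± 0.19 (adjusted p = 0.0142), where 6.04% of genes passed. It was lost without nonTEC sham day 7 array 1 (0.73, adjusted p = 0.0515) and without the 4 TEC arrays that stand apart (0.73, 0.0539).

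The order of Igf2 over the TEC groups ran from castrated day 20 (mean 10.45 ± 0.06 SD) through sham day 4 (9.85 ± 0.44), young (9.78 ± 0.19), sham day 7 (9.25 ± 0.09), middle-aged (9.21 ± 0.35), castrated day 7 (8.97 ± 0.21) and castrated day 4 (8.89 ± 0.11) to sham day 20 (8.83 ± 0.16). Neighbours in this order overlapped on single arrays except castrated day 20 against sham day 4, and young against sham day 7. In nonTEC the 5 groups from sham day 4 (11.82 ± 0.12) down to castrated day 7 (11.48 ± 0.20) overlapped each with the next, and young (10.26 ± 0.22) lay apart. In nonTEC, Ndn lay at 12.72 to 13.17 on all 17 arrays, with every pair of neighbouring groups overlapping.

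Among the tested genes of the IGF axis, 9 of 17 were higher and 0 lower with age in nonTEC, where 16.8% of all genes were higher and 15.5% lower. The median difference of the list was 0.48, against 0.02 over all genes. They included the receptor Igf1r (8.27 to 8.65 in young, 9.45 to 9.53 in middle age; 1.09 ± 0.17, adjusted p = 0.000229), the adaptor Irs2 (1.31 ± 0.34), the binding protein protease Pappa (1.16 ± 0.31) and the transcription factor Foxo1 (0.98 ± 0.18). The binding proteins Igfbp4 (0.50 ± 0.11) and Igfbp5 (0.68 ± 0.21) were also higher. Igf1 (0.45 ± 0.21), the growth hormone receptor Ghr (0.31 ± 0.18) and Igf2r, the imprinted receptor that clears IGF2 (-0.25 ± 0.14), did not pass.

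In TEC, 5 of 19 genes of this axis were higher and 1 lower with age, where 11.9% of all genes were higher and 6.88% lower, and the list had a median of 0.30 against 0.01 for all genes. Foxo1 (1.31 ± 0.24), the kinase subunit Pik3r1 (1.03 ± 0.31), Foxo3 (0.86 ± 0.26) and Igfbp5 (0.69 ± 0.16) were among those higher. Igfals, which makes the acid-labile subunit that holds IGFs in a serum complex, was lower (-0.75 ± 0.19). Igf1r gave 0.17 ± 0.33, Igf1 -0.18 ± 0.24 and Igf2bp3, an RNA-binding protein of fetal growth, -0.11 ± 0.27. Igf2bp3 was tested in TEC only through its day 20 groups. Its young and middle-aged means, 5.28 and 5.17, lay under the filter limit of 6.73.

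At day 20 after castration, 4 of 19 genes of the axis were higher in TEC and 6 lower, where 13.1% of all genes were higher and 9.40% lower. Igf1 was at 9.94 to 10.27 in castrated and 9.22 to 9.40 in sham arrays (0.84 ± 0.24, adjusted p = 0.0166). The sham group of day 20 was the lowest TEC group for Igf1. The castrated mean of day 20, 10.12, was also under the means of all other TEC groups, young and middle-aged included (10.45 to 11.02). Igfals (1.21 ± 0.19) and Igfbp6 (1.36 ± 0.37) were higher too. Igfbp4 was at 10.58 to 10.78 in castrated and 11.97 to 12.13 in sham arrays (-1.37 ± 0.29, adjusted p = 0.00194), and Igfbp5 at 13.11 to 13.19 and 14.11 to 14.26 (-1.04 ± 0.16, adjusted p = 0.000117). IGF binding proteins can hold IGFs away from the receptor. Igfbp6 went the other way from Igfbp4 and Igfbp5. Pik3r1 (-1.48 ± 0.31), Foxo1 (-1.0 ± 0.24) and Igf2bp3 (-0.80 ± 0.27) were also lower. The Igf2bp3 value, counted among the 6 lower, is a description, since only the day 20 groups passed the filter. Its means were 7.80 in castrated and 8.61 in sham arrays of day 20, and 5.15 to 5.53 in the other TEC groups. Igf1r (-0.66 ± 0.33), Igf2r (-0.41 ± 0.27), Igfbp2 (0.39 ± 0.25) and Ghr (-0.27 ± 0.24) did not pass.

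**Figure D5:**
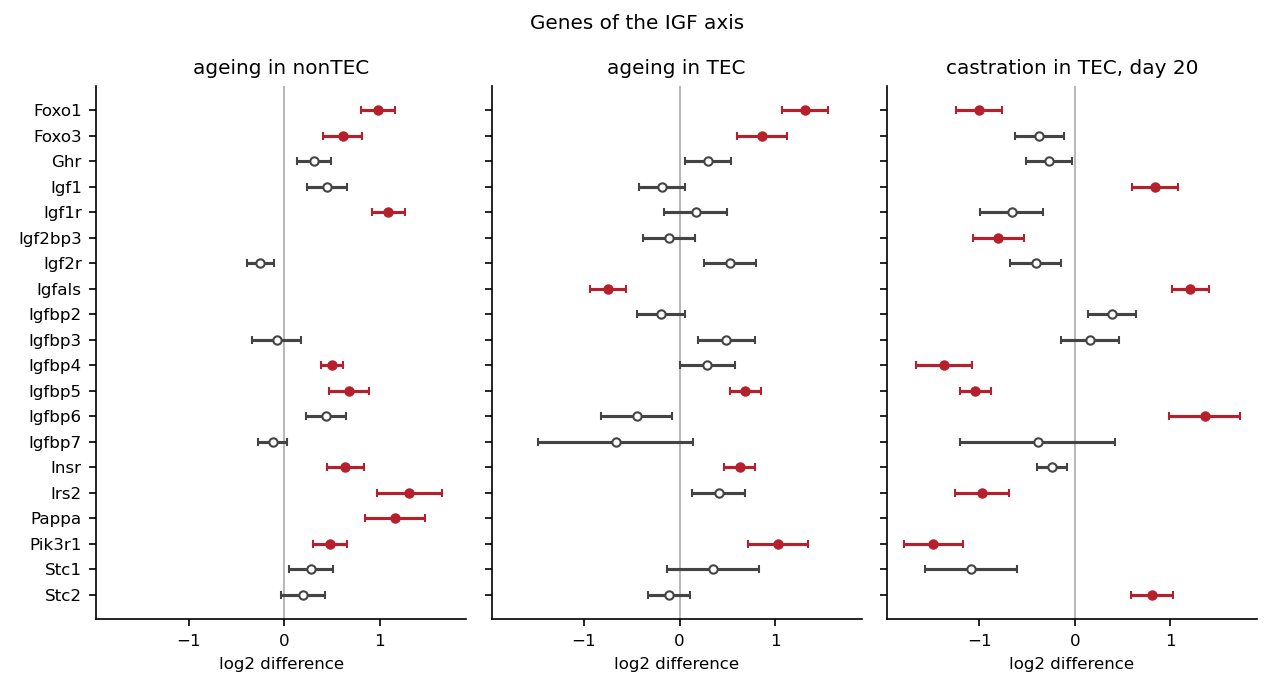
Log2 differences ± SE (x axis) of the tested genes of the IGF axis (y axis) with ageing in nonTEC, ageing in TEC and castration at day 20 in TEC. Filled red points passed an adjusted p of 0.05, and a missing point is a gene not tested in that fraction. Of 17 genes 9 are higher with ageing in nonTEC, and of 19 genes 4 are higher and 6 lower at day 20.

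Of 27 other imprinted genes tested in each fraction, 7 were higher and 2 lower with age in nonTEC, 4 higher and 3 lower in TEC, and 4 higher and 2 lower at day 20 after castration in TEC. Of all genes, 16.8% were higher and 15.5% lower with age in nonTEC, 11.9% and 6.88% in TEC, and 13.1% and 9.4% at day 20. The list medians were -0.03 in nonTEC and 0.02 in TEC with age and 0.01 at day 20, against 0.02, 0.01 and -0.04 for all genes. Cdkn1c, a cell cycle inhibitor of the same imprinted chromosome region as Igf2 and also in the growth programme list, had the same signs as Igf2 in each of these contrasts. It was higher with age in nonTEC (11.51 to 11.59 in young, 12.22 to 12.59 in middle age; 0.91 ± 0.12, adjusted p = 4.63e-05), lower in TEC (-0.74 ± 0.24, adjusted p = 0.0391) and higher at day 20 (12.16 to 12.41 in castrated, 10.65 to 10.86 in sham; 1.5 ± 0.24, adjusted p = 0.000234). At day 4 it gave -0.69 ± 0.24 and did not pass (adjusted p = 0.094).

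Ins2, the insulin gene that is the next protein-coding gene to Igf2 in the RefSeq order, was lower with age in TEC (-1.0 ± 0.33, adjusted p = 0.0393). It read 6.71 to 7.63 in castrated and 5.36 to 5.64 in sham arrays of day 20 (1.59 ± 0.33, adjusted p = 0.00169). The sham arrays of day 20 and the middle-aged mean of Ins2 (6.68) lay under the filter limit of 6.73. Whether its place beside Igf2 has a part in these differences was not tested. Rasgrf1, a paternally expressed exchange factor of Ras, was higher with age in nonTEC (2.32 ± 0.43) and higher at day 20 (0.98 ± 0.26). Snurf, of the Snrpn region, was higher with age in nonTEC (0.88 ± 0.16) and lower in TEC (-1.35 ± 0.36).

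Of the postnatal growth programme, a list of genes known to fall as body growth slows, 2 were higher and 1 lower of 9 tested with age in nonTEC, where 32.4% of all genes passed in either direction. Gpc3, a glypican that binds growth factors, was one of those higher (0.64 ± 0.19) and the transcription factor Sox4 was lower (-0.81 ± 0.22). In TEC 2 were higher and 1 lower of 12, where 18.8% of all genes passed. The list medians with age were 0.11 in nonTEC and -0.13 in TEC. At day 20 in TEC, where 22.5% of all genes passed and the list median was -0.45 against -0.04 for all genes, Cdkn1c and Gpc3 (0.95 ± 0.25) were higher, and Mdk (-0.82 ± 0.19), Smo (-0.81 ± 0.19), Igf2bp3 and Sox9 (-0.64 ± 0.11) were lower. Igf2bp3 is counted there with the filter limit given above. Gpc3 had means of 7.55 in castrated and 6.61 in sham arrays of day 20, and 8.05 to 9.15 in the other TEC groups. Gpc3 was lower at day 4 (-1.10 ± 0.25, adjusted p = 0.0252), the sign it shared there with Igf2. Sham day 4 was the TEC group highest in Gpc3 (mean 9.15). The Gpc3 mean was 8.05 in castrated mice of day 4 and 8.21 in unoperated middle-aged mice. Meg3, Hmga2 and Lin28b were not analysed here.

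Genes whose values ran most like a member over the arrays are given as a description, since the arrays share their groups. Over the 24 TEC arrays and 8005 genes, Igf2 ran most like Krt84 (Pearson r = 0.882), Saa1 (0.878), Prune2 (0.869), Abcg5 (0.857) and Pkd2l1 (0.855). Dlk1 ran most like Tnfrsf11b, which makes the RANKL decoy osteoprotegerin (0.939), Chst1 (0.935) and Idi2 (0.931), Ndn like Urod (0.915), Prss53 (0.913) and Coprs (0.911), and Grb10 like Cmip (0.771), Trp53i11 (0.769) and Atxn7l2 (0.733). Igf2 and Dlk1 themselves had r = 0.62 in TEC and 0.49 in nonTEC.

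Over the 17 nonTEC arrays and 7614 genes, Igf2 ran most like Zcchc18 (0.969), Ppp6r2 (0.954), the placental growth factor Pgf (0.949), Marf1 (0.942) and Cyp2e1 (0.941). Mest ran most like the matrix genes Cpxm1 (0.844), Mfap4 (0.817) and Col5a3 (0.812), and Grb10 like Gask1b (0.926), Olfml2b (0.921) and Timp2 (0.921). Dlk1 ran most like the detoxifying genes Gstp2 (0.893) and Mgst1 (0.875) and like Pnp2 (0.867), Ndn like Magee1 (0.832), Fads1 (0.818) and Heatr5a (0.817), and Peg3 like Hsd3b7 (0.82), Ubr2 (0.802) and Zfp131 (0.771). Igf2 and Mest had r = -0.60.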

How the data were processed

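The deposited values are log2 intensities of Illumina arrays that the authors had normalized, with no log base given (base 2 was assumed). The submitters' processing notes name limma; its role, the background correction and the detection filter were not given in the sources used. Quantiles are shared within each fraction and differ between them. Of 24671 probes, 20825 had 1 listed gene, and each gene took its probe of highest mean. Genes with at least 1 group mean above 6.73, the median of all values, were tested: 8195 in TEC, 7771 in nonTEC and 8487 over both. A group-mean model with a trended variance prior was run in limma (version 3.58.1, under R 4.3.3) within a fraction or over all 41 arrays between fractions. The 18 planned and 2 added contrasts had Benjamini-Hochberg adjustment over all genes tested, with a threshold of 0.05. Arrays were grouped from the labels, and 0 columns were left out. All listed genes are named in every comparison. For lists, counts are given with up to 4 members past the threshold and a fixed set of IGF and growth genes. The members and lists were chosen with earlier results of these data known. Same-numbered arrays deviated together weakly or not at all (r of -0.17 to 0.26), and the main fits paired no arrays. With so few arrays per group this check cannot settle whether the numbers pair arrays. The fits were tested on simulated data. Figures used matplotlib 3.10.9. The number of arrays limits the precision. Promoter windows come from RefSeq (GRCm38.p6). Alternatives were other filters, scalings, probes, weights, trends, arrays and controls, and leaving out each array.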

Additional observations from a re-analysis of the deposited data

Results flagged for a closer look

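In total, 6 contrasts between groups passed for a member, and each is a difference between differences. With age, the TEC difference minus the nonTEC difference was -1.83 for Igf2 and -1.42 for Dlk1, by a test of the difference over all 41 arrays. For castration on days 4 and 7, TEC minus nonTEC was 0.79 for Grb10. In TEC, the castration difference of day 20 minus the mean of days 4 and 7 was 2.24 for Igf2, 1.53 for Dlk1 and -0.84 for Grb10, in a contrast added after the values were seen. No group had more than 3 arrays, so no array was tested as an outlier.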

How the results depend on the processing

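Numbers of members past the threshold are given beside those of the report. The share of all genes past it in each setting is not given here or for the arrays left out below. These counts therefore cannot tell a move of the members from a move of all genes. For ageing in nonTEC, 2 became 1 with the stricter filter, the mean of all probes or all 41 arrays; for ageing in TEC, 2 became 1 without a filter or without the day 20 arrays, and 0 with only the arrays compared. For castrated against young nonTEC, 2 became 1 with the stricter filter, the mean of all probes or all 41 arrays; in TEC, 1 became 2 with the mean of all probes or without the 4 arrays that stand apart, and 3 with array weights or only the arrays compared. For castration in nonTEC at day 4, 1 became 0 with median centring, no trend, the replicate block or unoperated controls, and 2 with array weights; at day 7, 0 became 1 with array weights or only the arrays compared; on average, 0 became 1 with the mean of all probes, 3 with array weights and 2 with only the arrays compared. For castration in TEC at day 4, 1 became 0 with only the arrays compared, unoperated controls, sham arrays pooled over days, or without the 4 arrays that stand apart or the day 20 arrays; at day 7, 0 became 1 with array weights; at day 20, 2 became 4 with unoperated controls. For day 20 against days 4 and 7, 4 became 2 with the mean of all probes, where Dlk1 reversed to -0.06 and Grb10 to 0.04. For sham against unoperated TEC, 0 became 2 with array weights and 1 with all 41 arrays or without the 4 arrays that stand apart. For the ageing difference between fractions, 2 became 1 with the mean of all probes or only the arrays compared, and for the castration difference, 1 became 2 with array weights and 0 without the 4 arrays that stand apart.

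Leaving out each array in turn gave 1 to 2 members for ageing in nonTEC, 0 to 3 for ageing in TEC, 1 to 3 for the ageing difference between fractions, 0 to 1 for castrated against young TEC, 0 to 1 for the castration difference between fractions, 0 to 1 for castration in nonTEC at day 4, 0 to 1 for castration in TEC at day 4, 0 to 1 for its average over days, 0 to 1 for sham against unoperated TEC, and 3 to 4 for day 20 against days 4 and 7 and for each fraction difference. Igf2 kept its call under every alternative run for ageing in nonTEC (1.14 to 1.37 without 1 array), castrated against young nonTEC (1.15 to 1.37), castration at day 20 in TEC (1.56 to 1.71) and the ageing difference between fractions, and Dlk1 did for castration at day 20. With the replicate block, Grb10 in nonTEC at day 4 gave -0.63 (adjusted p = 0.0573) and Grb10 at day 20 against days 4 and 7 gave -0.26 (0.0539); no other call changed with it. Over all calls of members, 666 alternative values kept the side of the threshold, 76 lost it with the same sign, and 2, the Dlk1 and Grb10 values with probes averaged given above, lost it with the sign turned. The cause of these changes was not tested. Some fits of array weights did not converge. The alternatives without the 4 or the day 20 arrays were chosen after seeing the data. Dim members (Mest, Peg3) limit what low signals can show.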
